A study of Homo sapiens with 24 samples.

Results

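The 48 genes described here encode the proteins that load and fire replication origins, the enzymes that copy DNA, and the cyclins and E2F factors that control entry into S phase. They were taken as a fixed list of gene symbols, and all 48 were among the 17453 genes tested. SK-MES1 is an established human line from a lung squamous cell carcinoma. Cells of both arms lost serum for 3 h and then either received 2 ng/ml TGFβ1 or nothing, and RNA taken at 0, 8, 24 and 48 h gave 3 libraries per arm and time point. The 8 groups were therefore untreated cells and the TGFβ arm at each of the 4 times, 24 libraries in all. None of the labels gives a genotype other than that of the line or states that serum was returned, so the untreated arm is also a course after serum withdrawal. At 0 h the TGFβ arm had no time to respond. The study calls the 3 libraries of a group biological replicates. In the main fit the p-values set a difference of group means against a spread between replicates estimated over all 8 groups.

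Library totals ranged from 46613589 to 77964234 estimated counts with a median of 54120879. The least deeply counted member was CCNE2, with 74.6 to 668 estimated counts per library. The deposited names carry 4 library codes: untreated 0 and 8 h, untreated 24 and 48 h, TGFβ arm 0 and 8 h, and TGFβ arm 24 and 48 h. What a code stands for is not stated, so a difference between the arms cannot be told apart from a difference between codes. A change from 0 to 8 h or from 24 to 48 h lies within a code in each arm. Of 9 squamous markers, 5 reached 1 TPM in some library: TP63 (7.69 to 37.5 TPM), PKP1 (15.6 to 58.5), SERPINB5 (11.2 to 28.7), SOX2 (0.372 to 8.17) and TRIM29 (0.0790 to 1.14). KRT5, KRT14, KRT6A and DSG3 did not exceed 0.102 TPM in any library. These markers differed between the arms too: PKP1 and SERPINB5 were higher with TGFβ at 8, 24 and 48 h, TP63 was higher at 8 and 24 h and lower at 48 h, and SOX2 was lower at all 3, with log2 differences of -1.57, -2.74 and -3.55. TPM is a level corrected for transcript length and for the library total, and it is the scale of every level given here.

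Cells duplicate their DNA in an ordered way. In G1 the origin recognition complex, CDC6 and CDT1 place the ring-shaped MCM helicase on origins. At the start of S phase CDC45 and GINS turn that ring into an active helicase, and polymerases held by the PCNA clamp follow it. Many of the genes involved are transcribed through E2F sites that the retinoblastoma proteins keep silent until cyclin D and cyclin E kinases release them. TGFβ is best known in epithelial cells as a signal that halts the cycle in G1. In bulk RNA, fewer cells in S phase and less RNA per cell cannot be told apart.

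Promoter sequences are shown for 4 members because the E2F site is the feature these genes are known for. Among the 26 members picked by role (by size of difference, level, direction or name), these held an E2F match and had the largest average difference between the arms. E2F2 and TYMS, which were not among the 26, also held a match and had larger average differences (-0.61 and -0.31) than POLE2 (-0.19). RefSeq windows of 300 bases on GRCh38.p14, from 250 before to 50 after each start, were matched for 41 members. They are written 5′ to 3′ on the strand of the gene, with the E2F match in capitals.
UHRF1: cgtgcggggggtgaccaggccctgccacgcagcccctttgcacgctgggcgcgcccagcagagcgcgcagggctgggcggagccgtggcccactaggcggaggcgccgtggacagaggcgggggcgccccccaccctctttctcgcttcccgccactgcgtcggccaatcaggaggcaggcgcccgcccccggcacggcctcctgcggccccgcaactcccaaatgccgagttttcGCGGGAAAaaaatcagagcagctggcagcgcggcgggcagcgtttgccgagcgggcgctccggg
RFC3: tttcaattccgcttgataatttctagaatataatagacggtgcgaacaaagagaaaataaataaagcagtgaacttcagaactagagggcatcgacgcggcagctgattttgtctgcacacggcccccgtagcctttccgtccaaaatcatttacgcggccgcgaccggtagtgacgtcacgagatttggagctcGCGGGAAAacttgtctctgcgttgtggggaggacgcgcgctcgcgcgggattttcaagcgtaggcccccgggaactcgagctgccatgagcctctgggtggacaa
GINS3: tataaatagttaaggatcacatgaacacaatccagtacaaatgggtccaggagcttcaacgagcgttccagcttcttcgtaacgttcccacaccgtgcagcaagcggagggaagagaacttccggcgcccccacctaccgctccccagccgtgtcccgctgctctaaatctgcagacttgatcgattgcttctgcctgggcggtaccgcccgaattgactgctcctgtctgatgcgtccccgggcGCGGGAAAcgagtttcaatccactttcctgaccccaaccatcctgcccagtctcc
POLE2: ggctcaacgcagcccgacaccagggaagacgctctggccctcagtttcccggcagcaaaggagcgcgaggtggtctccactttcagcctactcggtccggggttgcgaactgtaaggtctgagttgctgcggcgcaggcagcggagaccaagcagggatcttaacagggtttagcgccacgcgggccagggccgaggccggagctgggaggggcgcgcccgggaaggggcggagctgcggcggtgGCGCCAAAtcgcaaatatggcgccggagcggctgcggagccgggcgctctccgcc
The window of UHRF1 is chr19:4909251-4909550 on the plus strand with the match at position -14 from the start. That of RFC3 is chr13:33817899-33818198, plus strand, with the match at -55. The GINS3 window lies at chr16:58392221-58392520, plus strand, and its match at -5. POLE2 is on the minus strand at chr14:49688165-49688464, with its match also at -5. The first 3 windows hold GCGGGAAA and the last holds GCGCCAAA.

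Motif letters were searched on both strands in all windows. The E2F letters TTTGGCGC or TTTCCCGC stood in 20 of 53 windows of the members (37.7%), each of a different gene, against 797 of all 35116 windows (2.27%). A second list of 48 genes of mitosis and G2/M, which act later in the cycle, had 51 windows from 40 of its genes. E2F letters stood in 2 of these windows (3.92%). CCAAT, the letters bound by NF-Y, stood in 31 member windows (58.5%), in 38 of the mitosis list (74.5%) and in 34.6% of all windows. The letters TTTGAA of the CHR element, known from late cell cycle genes, stood in 1 member window (1.89%), that of RRM1, in 31 of the mitosis list (60.8%) and in 15.2% of all windows. The 3 motifs do not share letters that would let their matches coincide in full. Counting only the 250 bases before the start gave 16 of 53 member windows with E2F letters (30.2%) and 1.93% of all.

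**Figure D1:**
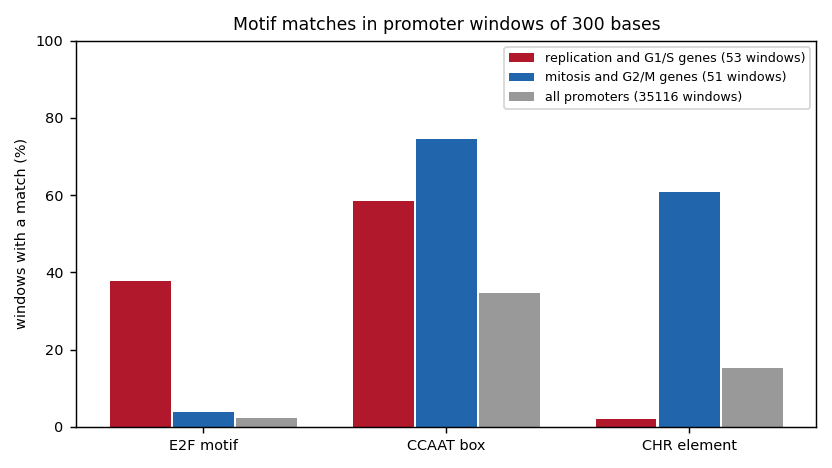
Bars give the percentage of promoter windows of 300 bases that hold each motif. They cover 41 of the 48 replication and G1/S genes (53 windows), 40 of the 48 mitosis and G2/M genes (51 windows) and all promoters (35116 windows). E2F letters stood in 37.7% of the member windows and CHR letters in 1.89%, the reverse of the mitosis list with 3.92% and 60.8%.

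Levels of the replication genes declined in both arms after serum withdrawal. In untreated cells the median member stood at 91.9% of its 0 h mean at 8 h, 45.0% at 24 h and 37.2% at 48 h. In the TGFβ arm the medians were 77.6%, 60.1% and 30.7%. The untreated arm thus had most of its decline by 24 h, while the TGFβ arm lay lower at 8 h, higher at 24 h and lower at 48 h. RRM2, a small subunit of ribonucleotide reductase, stood lowest in both arms at 48 h, at 16.5% and 9.27% of 0 h. CCND1, cyclin D1, kept 95.2% and 110.0%.

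Between 0 and 48 h, 47 members fell in untreated cells and 47 in the TGFβ arm at an adjusted p of 0.01, and none rose (limma voom, Benjamini-Hochberg over all tested genes). Of all tested genes 55.1% passed in untreated cells (27.1% lower and 28.0% higher) and 57.9% in the TGFβ arm (28.1% lower and 29.8% higher). CCND1 was the member that did not pass in either, with log2 differences of -0.12 ± 0.04 (SE; adjusted p = 0.011) and 0.08 ± 0.04 (adjusted p = 0.069). Differences are given as log2 with their standard error throughout. CCND1 passed in untreated cells at an adjusted p of 0.05, and also without untreated 0 h replicate 3 (-0.15) and, at -0.12, without untreated 24 h replicate 2 or 3, any of the TGFβ 0 h replicates or TGFβ 8 h replicate 1. These comparisons cross library codes, and the share of estimated counts from mitochondrial transcripts was 3.74% to 4.59% at 0 h and 5.73% to 6.19% at 48 h. Its part in the result was not tested.

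**Figure D2:**
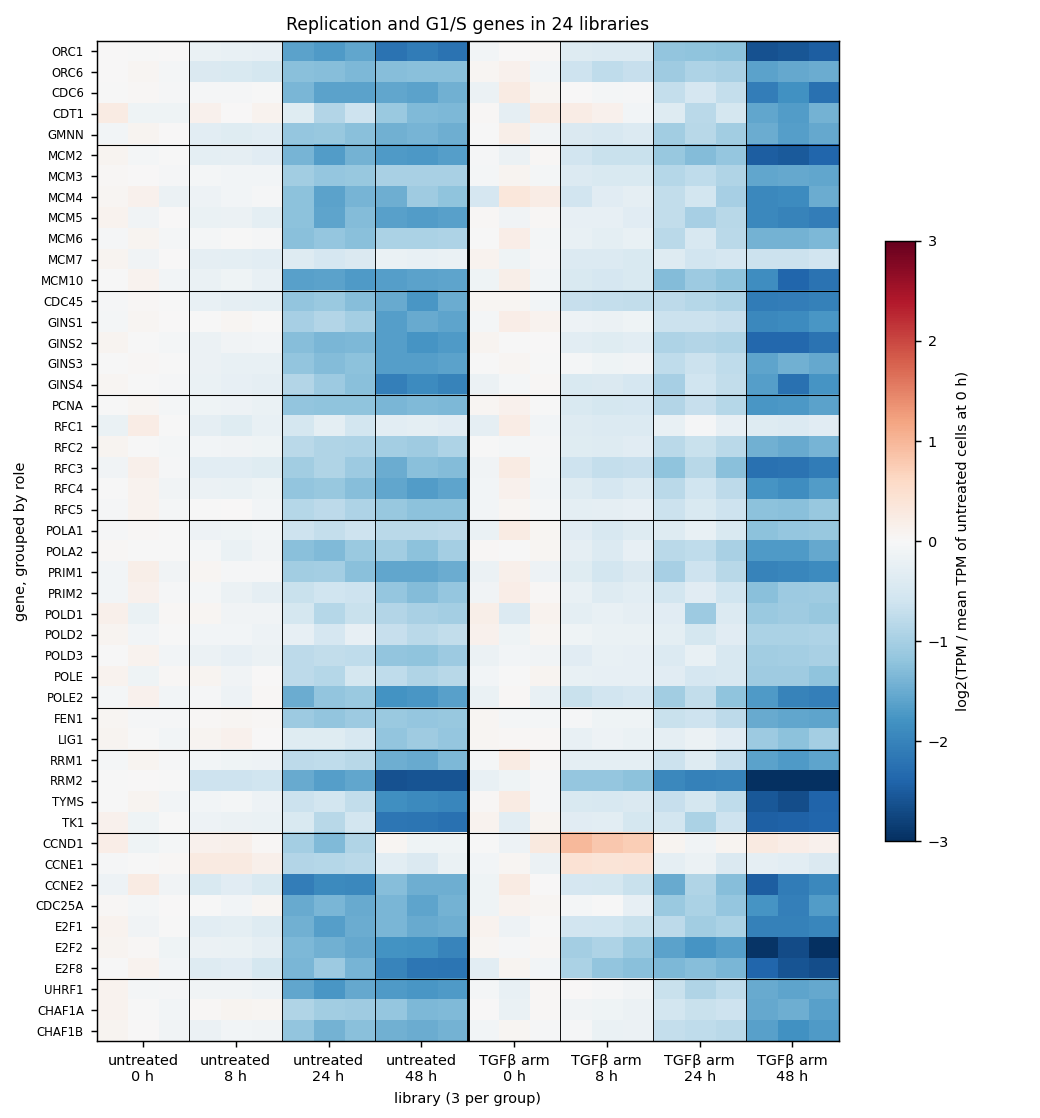
Each row is a gene, grouped by role, and each column a library, with 3 per group. Colour gives log2 of TPM over the mean of untreated cells at 0 h, cut at -3 and 3. RRM2 of the TGFβ arm at 48 h lies beyond the cut, as does E2F2 in replicate 3 of that group. Blue deepens from 0 to 48 h in both arms, and CCND1 is above its 0 h level in the TGFβ arm at 8 h.

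Changes within a library code were tested separately. From 0 to 8 h, 21 members fell and 2 rose in untreated cells (12.7% and 13.2% of all tested genes), with a median log2 change of -0.18. That count of 23 became 13 without untreated 0 h replicate 2, 15 without untreated 8 h replicate 2 and 13 without untreated 8 h replicate 3. In the TGFβ arm 32 fell and 2 rose (16.3% and 17.5% of all), with a median of -0.36. The members that rose were CCND1 and CCNE1 in both arms. From 24 to 48 h, 28 fell and 3 rose in untreated cells (13.6% and 14.7% of all), with a median of -0.31, and the risers were CCND1, CCNE1 and MCM6. Scaled to the summed counts of the 4 qRT-PCR reference genes of the study, that split was 5 lower and 22 higher. In the TGFβ arm 46 fell and none rose over the same interval (13.4% of all fell), with a median of -0.95, and CCND1 and CCNE1 were the members that did not pass.

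Stimulated and untreated cells were then compared at each time. At 0 h, with no time for TGFβ to act, limma voom called none of the 48 members and 0.0% of all tested genes, and edgeR and DESeq2 called no member. Across all tested genes 800 had an unadjusted p under 0.05 at 0 h. RRM2 was the only member whose TPM did not overlap between the arms at 0 h, being lower, and none lay higher (5.3% and 1.69% of all tested genes).

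At 8 h the median log2 difference, TGFβ arm minus untreated, was -0.16 over the members and -0.02 over all tested genes. GINS3, CCND1 and CCNE1 were higher (9.12% of all tested genes were) and 12 members were lower (7.26% of all). The 12 were MCM2, MCM3, MCM10, CDC45, GINS4, PCNA, PRIM1, POLE2, RRM2, TYMS, E2F2 and E2F8. The largest differences were those of E2F2 (-0.75 ± 0.077), E2F8 (-0.68 ± 0.07), RRM2 (-0.58 ± 0.045) and CCND1 (0.73 ± 0.038). TPM did not overlap between the arms for 36 members that were lower and 4 that were higher, against 31.2% and 16.2% of all tested genes. The count of 15 called members fell to 9 without untreated 8 h replicate 1, without untreated 8 h replicate 2 or without TGFβ 8 h replicate 2, and it was 1 higher and 25 lower with library totals and 1 higher and 19 lower with upper-quartile factors.

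At 24 h the direction was the other way. Higher levels in the TGFβ arm were called for 34 members (15.4% of all tested genes were higher) and a lower level for RRM2 (13.8% of all were lower). The members' median log2 difference was 0.34, and that of all tested genes was -0.02. CCND1 (1.19 ± 0.041), CDC6 (0.91 ± 0.048) and UHRF1 (0.88 ± 0.075) differed most. TPM did not overlap for 35 members that were higher and for RRM2 and E2F2, which were lower (17.2% and 23.2% of all). A fit on the 24 h libraries alone called 22 members higher and none lower.

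At 48 h most differences lay below 0 again. CCND1 was higher (16.1% of all tested genes were) and 26 members were lower (16.4% of all), with a median of -0.35 over the members and -0.01 over all tested genes. E2F2 (-0.92 ± 0.12), RRM2 (-0.89 ± 0.054), CCNE2 (-0.85 ± 0.16) and RFC3 (-0.79 ± 0.11) differed most. TPM did not overlap for 36 members that were lower and 4 that were higher (30.7% and 24.4% of all). The F-test over 8, 24 and 48 h passed 41 members (42.5% of all), 16 with a higher and 25 with a lower mean difference. That direction is only the sign of the mean over these times. Tested by itself, the mean did not pass for 32 of the 48 members. It was near 0 for RRM1 (0.004 ± 0.038), ORC1 (-0.01 ± 0.028) and MCM6 (-0.02 ± 0.034), whose differences changed sign between times. Members not passing the F-test were CDT1, MCM4, PRIM2, POLD1, POLD2, LIG1 and TK1.

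The scale matters for these counts. With the 4 reference genes as the scale, the median difference of all tested genes moved to 0.43 at 24 h and 0.34 at 48 h. The members' medians relative to it were 0.36 and -0.34, against 0.35 and -0.34 with TMM factors. On that scale 46 members were higher and none lower at 24 h, 8 were higher and 4 lower at 48 h, and the F-test split was 43 higher and 4 lower. That F-test split was 6 higher and 34 lower with library totals and 11 and 29 with upper-quartile factors. A scaling moves all genes alike, so it cannot change where a member lies against the median of all tested genes: 44 members lay above it at 24 h and 39 below it at 48 h.

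**Figure D3:**
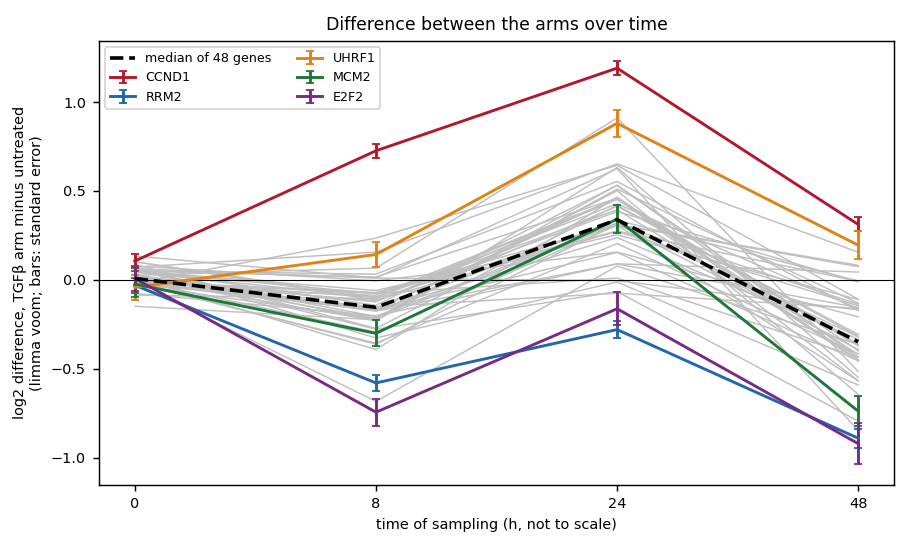
Lines give the log2 difference, TGFβ arm minus untreated, of each of the 48 members at 0, 8, 24 and 48 h, with standard errors for the 5 coloured genes and the median dashed. The median runs from near 0 at 0 h to -0.16 at 8 h, 0.34 at 24 h and -0.35 at 48 h.

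How the difference itself changed was tested by interaction contrasts. From 24 to 48 h, where the libraries of each arm share a code, the difference fell for 37 members and rose for none (5.61% and 3.5% of all tested genes, 9.11% in total), with a median of -0.66 over the members and 0.00 over all genes. CCNE2 (-1.47 ± 0.22), CDC6 (-1.43 ± 0.071), E2F1 (-1.18 ± 0.13), MCM10 (-1.15 ± 0.10) and MCM2 (-1.08 ± 0.11) had the largest falls. All 48 members lay below the median of all tested genes in this contrast. From 0 to 8 h the difference rose for CCND1 (0.62 ± 0.055; 5.05% of all rose) and fell for 7 members, MCM3, CDC45, PCNA, RRM2, TYMS, E2F2 and E2F8 (2.84% of all fell, and 7.88% changed in total). The split was 2 higher and 1 lower with the 4 reference genes. From 8 to 24 h, across codes, it rose for 34 members and fell for none (4.14% and 2.54% of all, 6.69% in total).

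Of the 48 members, 19 were called higher at 24 h and lower at 48 h (0.464% of all tested genes, 81 genes, were). They are 39.6% of the members and 23.5% of those 81 genes. The 19 were ORC1, ORC6, CDC6, MCM2, MCM3, MCM5, MCM6, MCM10, CDC45, GINS2, PCNA, POLA1, POLA2, PRIM1, FEN1, CCNE2, CDC25A, E2F1 and CHAF1A. All 19 also passed the interaction contrast from 24 to 48 h, which uses the same libraries, as did all 81. Of them MCM2, MCM3, MCM10, CDC45, PCNA and PRIM1 were already lower at 8 h. Another 11 were called at 24 h only, all higher (3.44% of all tested genes were), namely GMNN, GINS1, RFC1, RFC4, RFC5, PRIM2, POLD3, POLE, RRM1, UHRF1 and CHAF1B. MCM7, RFC2 and RFC3 were called at 48 h only, all lower (5.96% of all). CDT1, MCM4, POLD1, POLD2, LIG1 and TK1 were called at none of the 3 times (56.8% of all).

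**Figure D4:**
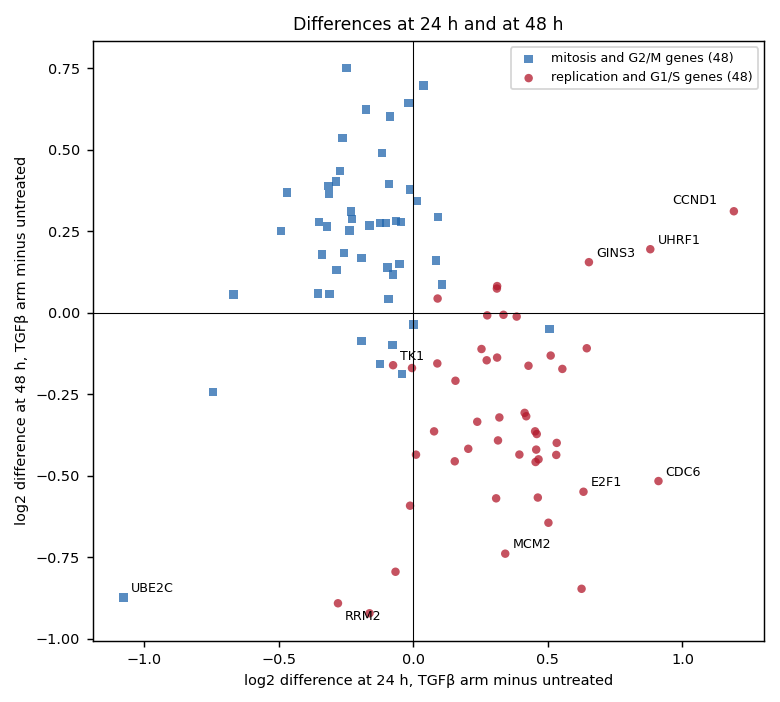
Each point is a gene, with its log2 difference (TGFβ arm minus untreated) at 24 h on the horizontal and at 48 h on the vertical axis. Most of the 48 replication and G1/S genes lie at lower right (median 0.34 and -0.35) and most of the 48 mitosis and G2/M genes at upper left (median -0.17 and 0.27).

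Origin licensing genes mark sites where replication can begin. Of ORC1, ORC6, CDC6, CDT1 and GMNN, 4 were higher at 24 h and 3 lower at 48 h, and CDT1 passed at neither. CDC6 loads the helicase together with CDT1 and had the widest swing of the group. CDC6 (GRCh38, as for all gene positions given, chr17:40287879-40304657) in untreated cells was at 76.7, 79.2 and 75.4 TPM at 0 h, 75.2, 75.7 and 76.7 at 8 h, 29.7, 25.5 and 25.3 at 24 h and 26.4, 25.5 and 28.4 at 48 h. CDC6 with TGFβ was at 68.2, 91.1 and 80.9 TPM at 0 h, 78.3, 73.9 and 75.1 at 8 h, 47.2, 54.7 and 47.2 at 24 h and 18.3, 21.8 and 16.4 at 48 h. The arms overlapped at 0 and 8 h and separated at 24 h, when untreated cells had dropped to about the level they kept at 48 h. The log2 differences were 0.91 ± 0.048 at 24 h (adjusted p = 2e-12) and -0.52 ± 0.052 at 48 h (adjusted p = 4.5e-08), and the latter was -0.16 and not called with the 4 reference genes. GMNN encodes geminin, which binds CDT1 and blocks relicensing. GMNN in untreated cells was at 65.0, 73.1 and 70.3 TPM at 0 h, 55.7, 53.7 and 55.9 at 8 h, 31.2, 31.5 and 29.0 at 24 h and 25.4, 26.3 and 25.1 at 48 h. GMNN with TGFβ was at 68.8, 78.1 and 64.9 TPM at 0 h, 51.4, 49.7 and 52.0 at 8 h, 33.4, 39.1 and 33.7 at 24 h and 24.6, 21.98 and 24.1 at 48 h. It was higher at 24 h (0.25 ± 0.06, adjusted p = 0.0019), a call lost without untreated 24 h replicate 3 (0.23) or TGFβ 24 h replicate 2 (0.21). It was also lost on log2(TPM + 1) and log2(TPM + 0.1) (0.20 and 0.21), length-scaled counts (0.24) and the compared libraries only (0.27), and with upper-quartile factors (0.20) or library totals (0.16). At 48 h its difference was -0.11 ± 0.065 (adjusted p = 0.19). ORC1, the largest subunit of the origin recognition complex, fell to 22.1% of 0 h in untreated cells and 17.2% in the TGFβ arm at 48 h.

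The MCM ring unwinds DNA ahead of the polymerases, and MCM10 helps to activate it. MCM2, MCM3, MCM5, MCM6 and MCM10 were higher at 24 h and lower at 48 h. MCM7 was lower at 48 h (-0.44 ± 0.077) with 0.01 ± 0.076 at 24 h. The leading transcript of MCM7 is annotated as a retained intron and carried 47.3% to 51.2% of its TPM, against 37.1% to 48.3% in coding transcripts. MCM2 (chr3:127598410-127622436) in untreated cells was at 128, 114 and 118 TPM at 0 h, 97.5, 99.95 and 95.3 at 8 h, 45.6, 37.3 and 44.5 at 24 h and 37.1, 36.3 and 38.0 at 48 h. MCM2 with TGFβ was at 118, 106 and 124 TPM at 0 h, 80.8, 75.1 and 75.2 at 8 h, 54.9, 48.4 and 53.3 at 24 h and 21.8, 20.8 and 22.9 at 48 h. Its libraries lay below those of untreated cells at 8 h, above them at 24 h and below them at 48 h, without overlap at any of the 3. The differences were -0.30 ± 0.074, 0.34 ± 0.079 and -0.74 ± 0.084 (adjusted p = 0.0043, 0.0015 and 2.5e-07). The call at 24 h was lost without untreated 24 h replicate 2 (0.25) or TGFβ 24 h replicate 1 (0.30), with library totals (0.25) and on the compared libraries only (0.36), and that at 8 h without any of the untreated 8 h replicates or TGFβ 8 h replicate 2 or 3 (-0.32 to -0.28). MCM3 in untreated cells was at 132, 131 and 127 TPM at 0 h, 124, 122 and 122 at 8 h, 62.6, 58.1 and 59.2 at 24 h and 66.6, 66.6 and 66.0 at 48 h. MCM3 with TGFβ was at 124, 137 and 126 TPM at 0 h, 98.1, 94.3 and 95.0 at 8 h, 71.5, 76.5 and 69.8 at 24 h and 43.8, 44.8 and 43.9 at 48 h. The same order of arms held, with -0.29 ± 0.037 at 8 h, 0.31 ± 0.039 at 24 h and -0.57 ± 0.04 at 48 h (adjusted p = 1.3e-10 at 48 h). With the 4 reference genes neither the 8 h (-0.24) nor the 48 h difference (-0.22) was called. Untreated MCM3 did not pass between 24 and 48 h (0.09 ± 0.039), whereas that of the TGFβ arm fell (-0.78 ± 0.039). MCM4 is uncertain: coding transcripts carried only 9.60% to 12.9% of its TPM, its leading transcript is annotated as a retained intron, and it passed at no time.

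CDC45 and the GINS complex join the MCM ring to form the active helicase. All 5 genes were higher at 24 h, and CDC45 and GINS2 were lower at 48 h. GINS3 was one of the few members higher at 8 h. GINS1 in untreated cells was at 17.3, 18.6 and 17.9 TPM at 0 h, 17.8, 18.6 and 17.8 at 8 h, 9.01, 9.68 and 8.81 at 24 h and 5.70, 6.24 and 6.01 at 48 h. GINS1 with TGFβ was at 17.1, 20.6 and 19.3 TPM at 0 h, 16.0, 16.0 and 16.5 at 8 h, 11.46, 11.4 and 11.2 at 24 h and 4.70, 4.86 and 5.34 at 48 h. It was higher at 24 h (0.43 ± 0.047, adjusted p = 1.8e-07), and its difference at 48 h was -0.16 ± 0.056 (adjusted p = 0.023). GINS3 (chr16:58295080-58406147) in untreated cells was at 47.6, 49.2 and 47.7 TPM at 0 h, 42.7, 41.3 and 41.5 at 8 h, 21.1, 19.5 and 20.6 at 24 h and 15.3, 15.4 and 15.8 at 48 h. GINS3 with TGFβ was at 48.1, 50.1 and 47.8 TPM at 0 h, 45.9, 43.9 and 44.8 at 8 h, 28.6, 30.9 and 28.5 at 24 h and 16.1, 17.8 and 16.7 at 48 h. Its stimulated libraries lay above the untreated ones at 8, 24 and 48 h, by 0.16 ± 0.039, 0.65 ± 0.043 and 0.16 ± 0.047 (adjusted p = 0.0052, 7.1e-11 and 0.011). The call at 8 h was lost when any of the 6 libraries of 8 h was left out, with 0.15 or 0.16 each time, and on unfiltered counts, length-scaled counts, log2(TPM + 1) and log2(TPM + 0.1) or scaled by the 4 reference genes, upper quartiles or library totals (0.072 to 0.21). GINS4 in untreated cells was at 29.4, 27.9 and 27.8 TPM at 0 h, 24.9, 24.1 and 23.4 at 8 h, 15.5, 13.3 and 11.9 at 24 h and 6.84, 7.70 and 7.07 at 48 h. GINS4 with TGFβ was at 25.2, 27.1 and 29.2 TPM at 0 h, 20.6, 21.1 and 19.9 at 8 h, 14.2, 18.8 and 17.1 at 24 h and 9.08, 5.99 and 8.26 at 48 h. The arms overlapped at 24 and 48 h, although the fit called 0.31 ± 0.058 at 24 h (adjusted p = 0.00017), a call lost on log2(TPM + 1), log2(TPM + 0.1), length-scaled counts and the compared libraries only (0.28 to 0.33). Its call at 8 h (-0.22 ± 0.052) was lost without untreated 8 h replicate 1 or 2 or TGFβ 8 h replicate 2 or 3 (-0.22 to -0.20), and on log2(TPM + 1), log2(TPM + 0.1), length-scaled counts and the 4 reference genes (-0.23 to -0.16). CDC45 had -0.39 ± 0.057 at 8 h, 0.47 ± 0.061 at 24 h and -0.45 ± 0.07 at 48 h, all called.

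PCNA is the sliding clamp that holds polymerases on DNA, and the RFC complex loads it. Higher levels at 24 h were called for PCNA, RFC1, RFC4 and RFC5, and lower levels at 48 h for PCNA, RFC2 and RFC3. PCNA (chr20:5114953-5126626) in untreated cells was at 223, 233 and 216 TPM at 0 h, 203, 202 and 195 at 8 h, 99.0, 96.2 and 96.7 at 24 h and 86.6, 88.8 and 87.4 at 48 h. PCNA with TGFβ was at 234, 244 and 221 TPM at 0 h, 163, 156 and 158 at 8 h, 121, 138 and 124 at 24 h and 66.8, 67.7 and 73.0 at 48 h. The libraries of the arms did not overlap after 0 h, with -0.27 ± 0.047 at 8 h, 0.42 ± 0.049 at 24 h and -0.32 ± 0.051 at 48 h (adjusted p = 0.00012, 5.2e-07 and 3e-05). With the 4 reference genes as the scale the difference at 48 h was 0.035, and that at 8 h (-0.22) was not called. RFC3 in untreated cells was at 32.6, 39.1 and 34.2 TPM at 0 h, 28.4, 28.4 and 27.6 at 8 h, 17.2, 18.8 and 16.4 at 24 h and 12.6, 14.8 and 14.3 at 48 h. RFC3 with TGFβ was at 32.9, 41.4 and 34.1 TPM at 0 h, 22.9, 21.6 and 21.95 at 8 h, 15.4, 19.7 and 14.7 at 24 h and 7.41, 7.61 and 8.26 at 48 h. It went without a rise at 24 h (-0.07 ± 0.092, overlapping) and was lower at 48 h (-0.79 ± 0.11, adjusted p = 2.6e-06; -0.44 and not called with the 4 reference genes). RFC4 in untreated cells was at 109, 118 and 102 TPM at 0 h, 96.7, 94.8 and 100.3 at 8 h, 48.0, 50.02 and 45.1 at 24 h and 37.1, 34.1 and 36.3 at 48 h. RFC4 with TGFβ was at 104, 119 and 104 TPM at 0 h, 83.6, 77.2 and 81.9 at 8 h, 62.9, 71.7 and 63.7 at 24 h and 32.2, 30.1 and 34.1 at 48 h. The arms were apart at 24 h (0.51 ± 0.071, adjusted p = 5.3e-06) and overlapped at 48 h.

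RFC1, the large subunit of the loader, kept the most of its 0 h level in this group at 48 h, 79.5% in untreated cells and 78.3% in the TGFβ arm. RFC1 in untreated cells was at 95.1, 127 and 108 TPM at 0 h, 90.4, 85.3 and 93.3 at 8 h, 75.9, 88.5 and 74.3 at 24 h and 87.4, 88.6 and 86.1 at 48 h. RFC1 with TGFβ was at 91.0, 127 and 103 TPM at 0 h, 83.4, 81.9 and 82.7 at 8 h, 92.9, 106 and 91.5 at 24 h and 82.96, 82.0 and 86.8 at 48 h. Libraries of replicate 2 were highest in both arms at 0 h and at 24 h. At 24 h the difference was 0.31 ± 0.068 (adjusted p = 0.00087), not called on log2(TPM + 1) or log2(TPM + 0.1) (0.28 and 0.29), with library totals (0.22) or on the compared libraries only (0.33), and at 48 h 0.07 ± 0.068 (adjusted p = 0.42). RFC5 in untreated cells was at 46.2, 50.8 and 45.4 TPM at 0 h, 47.3, 47.8 and 44.9 at 8 h, 26.2, 27.7 and 25.1 at 24 h and 21.6, 20.2 and 20.2 at 48 h. RFC5 with TGFβ was at 45.0, 49.7 and 45.2 TPM at 0 h, 38.7, 39.1 and 40.2 at 8 h, 30.5, 34.7 and 30.9 at 24 h and 20.2, 19.9 and 21.7 at 48 h. It too was higher at 24 h (0.33 ± 0.053, adjusted p = 3e-05) and overlapped at 48 h (-0.01 ± 0.058).

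Replicative polymerases and primase form the largest group, with 9 genes. Polymerase alpha and primase (POLA1, POLA2, PRIM1, PRIM2) start DNA strands, polymerase delta (POLD1, POLD2, POLD3) extends mainly the lagging strand and polymerase epsilon (POLE, POLE2) the leading strand. POLA1, POLA2, PRIM1, PRIM2, POLD3 and POLE were higher at 24 h, and POLA1, POLA2 and PRIM1 were lower at 48 h. POLD2, a small subunit of polymerase delta, had the highest mean level of the 48 members, 262.4 TPM. POLD2 in untreated cells was at 342, 306 and 319.9 TPM at 0 h, 303, 303 and 291 at 8 h, 271, 226 and 272 at 24 h and 200.2, 185 and 192 at 48 h. POLD2 with TGFβ was at 354, 293 and 336 TPM at 0 h, 294, 279 and 279 at 8 h, 264, 224 and 257 at 24 h and 167, 168 and 169 at 48 h. The arms overlapped at 24 h (-0.01 ± 0.091), and the 48 h difference of -0.17 ± 0.094 did not pass (adjusted p = 0.16). With the 4 reference genes these 2 differences were 0.44 and 0.18. POLD3 in untreated cells was at 67.0, 72.3 and 63.2 TPM at 0 h, 59.7, 56.7 and 60.0 at 8 h, 38.8, 40.3 and 40.0 at 24 h and 29.5, 29.3 and 31.6 at 48 h. POLD3 with TGFβ was at 59.6, 63.7 and 62.5 TPM at 0 h, 53.6, 58.2 and 56.9 at 8 h, 50.7, 57.8 and 48.7 at 24 h and 32.5, 33.3 and 34.2 at 48 h. It was higher at 24 h (0.38 ± 0.064, adjusted p = 5.4e-05; not called on the compared libraries only, 0.40), and at 48 h the fitted difference was -0.01 ± 0.068, though TPM lay slightly higher in every stimulated library.

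POLE encodes the catalytic subunit of polymerase epsilon and POLE2 its second subunit. POLE in untreated cells was at 32.9, 28.1 and 31.7 TPM at 0 h, 32.8, 28.9 and 31.3 at 8 h, 17.9, 17.2 and 21.5 at 24 h and 18.1, 16.4 and 17.4 at 48 h. POLE with TGFβ was at 29.1, 30.5 and 32.7 TPM at 0 h, 26.5, 25.8 and 25.9 at 8 h, 24.3, 21.9 and 22.2 at 24 h and 14.7, 14.6 and 13.4 at 48 h. It was higher at 24 h (0.31 ± 0.067, adjusted p = 0.00075; not called on log2(TPM + 1), log2(TPM + 0.1) or the compared libraries only, 0.27 to 0.33) and differed by -0.14 ± 0.07 at 48 h (adjusted p = 0.12; 0.22 with the 4 reference genes). POLE2 in untreated cells was at 23.03, 26.2 and 22.5 TPM at 0 h, 23.1, 21.6 and 24.3 at 8 h, 8.50, 10.5 and 11.0 at 24 h and 6.90, 7.08 and 7.69 at 48 h. POLE2 with TGFβ was at 20.7, 24.5 and 20.5 TPM at 0 h, 15.0, 16.1 and 16.8 at 8 h, 11.7, 14.2 and 10.3 at 24 h and 7.38, 5.91 and 5.76 at 48 h. Lower libraries without overlap were seen at 8 h (-0.36 ± 0.091, adjusted p = 0.0059), and the arms overlapped at 24 and 48 h. That 8 h call was lost without untreated 8 h replicate 1 (-0.31), untreated 8 h replicate 2 (-0.37), TGFβ 8 h replicate 1 (-0.33) or TGFβ 8 h replicate 2 (-0.34), with edgeR (-0.36) and with the 4 reference genes (-0.30).

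FEN1 and LIG1 trim and seal Okazaki fragments. FEN1, the flap endonuclease, was higher at 24 h and lower at 48 h, and LIG1, the ligase, passed at no time (0.09 ± 0.079 at 24 h and 0.04 ± 0.086 at 48 h). FEN1 in untreated cells was at 74.3, 69.7 and 69.5 TPM at 0 h, 72.4, 74.7 and 72.5 at 8 h, 33.2, 31.4 and 33.4 at 24 h and 33.1, 31.9 and 32.5 at 48 h. FEN1 with TGFβ was at 74.5, 68.3 and 68.0 TPM at 0 h, 69.0, 65.1 and 64.8 at 8 h, 44.5, 46.1 and 41.1 at 24 h and 24.9, 24.0 and 23.8 at 48 h. Untreated cells were at about the same level at 24 and 48 h, and the stimulated libraries lay above it and then below it. The differences were 0.45 ± 0.056 (adjusted p = 1.2e-06) and -0.46 ± 0.059 (adjusted p = 1.8e-06), the latter -0.11 and not called with the 4 reference genes.

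Genes of nucleotide supply make and salvage the building blocks of DNA. Of RRM1, RRM2, TYMS and TK1, RRM1 was higher and RRM2 lower at 24 h, and RRM2 and TYMS were lower at 48 h. RRM2 (chr2:10120698-10211725) in untreated cells was at 310.4, 315 and 311 TPM at 0 h, 205, 202 and 205 at 8 h, 109.5, 100.1 and 106 at 24 h and 51.0, 51.8 and 51.5 at 48 h. RRM2 with TGFβ was at 269.8, 285 and 304 TPM at 0 h, 141, 139 and 134 at 8 h, 81.3, 76.5 and 78.0 at 24 h and 27.9, 25.4 and 26.2 at 48 h. The stimulated libraries lay below the untreated ones at every time, including 0 h, where the difference of -0.03 ± 0.043 did not pass (adjusted p = 1). The differences were -0.58 ± 0.045, -0.28 ± 0.048 and -0.89 ± 0.054 at 8, 24 and 48 h (adjusted p = 2.2e-09, 7.5e-05 and 1.2e-11), and the one at 24 h was 0.17 with the 4 reference genes and -0.26, not called, on the compared libraries only. Coding transcripts carried 35.9% to 47.8% of RRM2's TPM. RRM1, the large subunit of the same enzyme, in untreated cells was at 94.9, 106 and 96.8 TPM at 0 h, 94.2, 90.4 and 89.0 at 8 h, 57.4, 58.7 and 55.3 at 24 h and 35.7, 34.9 and 39.0 at 48 h. RRM1 with TGFβ was at 95.6, 118 and 101 TPM at 0 h, 81.3, 80.6 and 81.3 at 8 h, 62.9, 76.1 and 60.9 at 24 h and 32.5, 30.7 and 33.0 at 48 h. It was higher at 24 h (0.27 ± 0.065, adjusted p = 0.0019), which did not hold without untreated 24 h replicate 3 (0.25) or TGFβ 24 h replicate 2 (0.19), on log2(TPM + 1) or log2(TPM + 0.1) (0.21 each), with library totals (0.18) or on the compared libraries only (0.29).

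TK1 encodes thymidine kinase, which salvages thymidine, and TYMS thymidylate synthase, which makes its nucleotide anew. TK1 in untreated cells was at 267, 221 and 242 TPM at 0 h, 219.7, 213 and 211 at 8 h, 176, 136 and 165 at 24 h and 53.9, 53.0 and 51.0 at 48 h. TK1 with TGFβ was at 261, 196 and 256 TPM at 0 h, 193, 193 and 169.6 at 8 h, 166, 125 and 157 at 24 h and 44.5, 45.3 and 46.9 at 48 h. Both arms kept much of TK1 until 24 h and little at 48 h, and the differences between them did not pass (-0.08 ± 0.12 at 24 h and -0.16 ± 0.14 at 48 h). The change from 24 to 48 h was -1.70 ± 0.13 in untreated cells and -1.79 ± 0.13 in the TGFβ arm. TYMS in untreated cells was at 222, 236 and 212 TPM at 0 h, 211, 214 and 201 at 8 h, 142, 153 and 134 at 24 h and 62.5, 59.1 and 57.4 at 48 h. TYMS with TGFβ was at 229, 265 and 219 TPM at 0 h, 162, 159 and 165 at 8 h, 139, 154 and 132 at 24 h and 38.2, 35.5 and 42.3 at 48 h. Its arms overlapped at 24 h and were apart at 8 h (-0.33 ± 0.045) and 48 h (-0.59 ± 0.053).

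Cyclins, CDC25A and E2F factors act upstream of the replication genes. CCND1 and CCNE1 were higher at 8 and 24 h, CCNE2, CDC25A and E2F1 were higher at 24 h and lower at 48 h, and E2F2 and E2F8 were lower at 8 and 48 h. Cyclin D1 pairs with CDK4 and CDK6 to start phosphorylation of the retinoblastoma protein. CCND1 (chr11:69641156-69654474) in untreated cells was at 226, 181 and 189.9 TPM at 0 h, 215, 219.8 and 202 at 8 h, 97.2, 78.4 and 106 at 24 h and 205, 182 and 181 at 48 h. CCND1 with TGFβ was at 197, 178 and 243 TPM at 0 h, 386, 348 and 328 at 8 h, 208, 185 and 209 at 24 h and 240.3, 226 and 215 at 48 h. Untreated libraries were lowest at 24 h and rose from there to 48 h, whereas stimulated cells rose at 8 h (0.78 ± 0.039). The arms did not overlap from 8 h on, with 0.73 ± 0.038, 1.19 ± 0.041 and 0.31 ± 0.04 (adjusted p = 4.7e-12, 1.3e-15 and 1.3e-06). The call at 48 h was lost in fits on log2(TPM + 1) (0.26), log2(TPM + 0.1) (0.26) and length-scaled counts (0.29). CCNE1 encodes cyclin E1, the partner of CDK2 at S-phase entry. CCNE1 in untreated cells was at 10.9, 11.2 and 11.6 TPM at 0 h, 13.4, 13.5 and 12.5 at 8 h, 6.11, 6.23 and 6.44 at 24 h and 9.06, 8.25 and 9.74 at 48 h. CCNE1 with TGFβ was at 10.6, 11.7 and 9.97 TPM at 0 h, 15.2, 14.6 and 15.0 at 8 h, 9.23, 9.90 and 8.30 at 24 h and 9.25, 9.06 and 8.30 at 48 h. The differences were 0.23 ± 0.06 at 8 h (adjusted p = 0.006), a call lost when any of the 6 libraries of 8 h was left out (0.21 to 0.26) and with edgeR and on the settings that ended the 8 h call of GINS3 (0.15 to 0.29), and 0.64 ± 0.074 at 24 h (adjusted p = 3.9e-07). At 48 h the arms overlapped (-0.11 ± 0.072).

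CDC25A is the phosphatase that activates CDK2, and E2F1 is an activating factor of the E2F family. CDC25A in untreated cells was at 12.8, 12.0 and 12.5 TPM at 0 h, 12.2, 11.8 and 12.8 at 8 h, 4.33, 4.82 and 4.35 at 24 h and 4.79, 4.16 and 4.62 at 48 h. CDC25A with TGFβ was at 11.4, 13.4 and 13.0 TPM at 0 h, 11.9, 12.3 and 10.5 at 8 h, 5.77, 6.41 and 5.53 at 24 h and 3.61, 2.99 and 3.87 at 48 h. The arms overlapped at 8 h and were apart at 24 h (0.46 ± 0.054, adjusted p = 6.1e-07) and 48 h (-0.37 ± 0.06, adjusted p = 2.9e-05; -0.021 and not called with the 4 reference genes). E2F1 (chr20:33675477-33686385) in untreated cells was at 49.0, 42.1 and 45.0 TPM at 0 h, 36.2, 37.0 and 34.5 at 8 h, 16.7, 14.4 and 16.2 at 24 h and 17.6, 15.9 and 16.4 at 48 h. E2F1 with TGFβ was at 48.6, 40.7 and 45.2 TPM at 0 h, 30.3, 29.7 and 28.3 at 8 h, 26.2, 22.1 and 23.5 at 24 h and 11.0, 11.1 and 11.6 at 48 h. Untreated E2F1 was at about the same level at 24 and 48 h (0.03 ± 0.092, not called), and stimulated cells went from above it to below it. The differences were 0.63 ± 0.089 at 24 h (adjusted p = 6.8e-06) and -0.55 ± 0.097 at 48 h (adjusted p = 8.6e-05), and their change was -1.18 ± 0.13 (adjusted p = 2.1e-06). E2F2, another activator, and E2F8, a repressor of the family, had no call at 24 h (-0.16 ± 0.092 and 0.08 ± 0.08). E2F2 in untreated cells was at 8.90, 8.66 and 7.69 TPM at 0 h, 7.46, 7.30 and 7.02 at 8 h, 3.33, 3.11 and 2.92 at 24 h and 2.42, 2.40 and 2.14 at 48 h. E2F2 with TGFβ was at 8.71, 8.20 and 8.55 TPM at 0 h, 4.17, 4.39 and 3.88 at 8 h, 2.76, 2.46 and 2.69 at 24 h and 1.10, 1.31 and 1.02 at 48 h. Its stimulated libraries were the lower ones at 8, 24 and 48 h, without overlap.

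**Figure D5:**
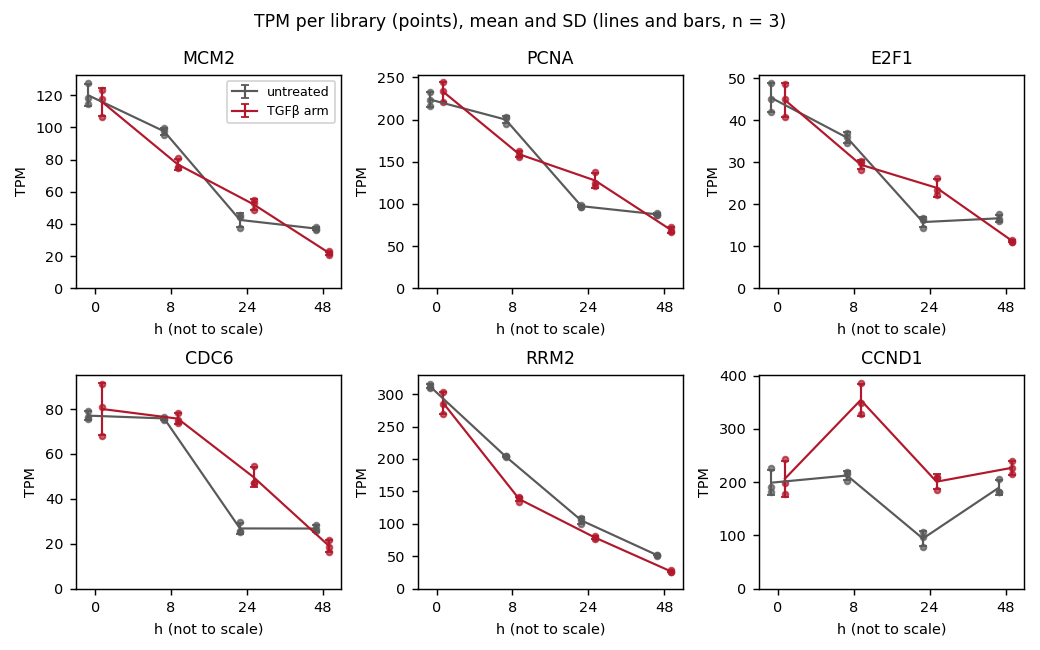
Points are the TPM of each library, with lines through the means and bars of 1 SD (n = 3), for 6 members in untreated cells (grey) and the TGFβ arm (red) at 0, 8, 24 and 48 h (not to scale). For MCM2, PCNA, E2F1 and CDC6 the red points lie above the grey at 24 h and below them at 48 h, for RRM2 they lie below at every time, and for CCND1 above from 8 h on.

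Chromatin assembly and maintenance methylation follow the fork. CHAF1A and CHAF1B are subunits of the CAF-1 histone chaperone, and UHRF1 guides the maintenance methyltransferase to newly copied DNA. All 3 were higher at 24 h, and CHAF1A was lower at 48 h (-0.31 ± 0.074). UHRF1 (chr19:4903080-4962154) in untreated cells was at 63.9, 56.7 and 57.7 TPM at 0 h, 55.0, 55.5 and 53.2 at 8 h, 20.1, 17.7 and 20.5 at 24 h and 18.4, 17.7 and 18.3 at 48 h. UHRF1 with TGFβ was at 57.1, 50.8 and 60.7 TPM at 0 h, 59.7, 58.0 and 55.6 at 8 h, 37.4, 31.9 and 35.0 at 24 h and 20.7, 19.8 and 20.5 at 48 h. Its stimulated libraries were the higher ones at 8, 24 and 48 h, and the test passed at 24 h (0.88 ± 0.075, adjusted p = 4.3e-09) but not at 8 h (0.14 ± 0.069, adjusted p = 0.15) or 48 h (0.19 ± 0.078, adjusted p = 0.05). CHAF1B in untreated cells was at 23.8, 22.6 and 20.7 TPM at 0 h, 19.6, 21.2 and 20.8 at 8 h, 9.76, 8.30 and 9.35 at 24 h and 8.20, 7.98 and 8.41 at 48 h. CHAF1B with TGFβ was at 21.2, 23.1 and 21.7 TPM at 0 h, 21.7, 19.3 and 19.9 at 8 h, 13.7, 13.2 and 12.8 at 24 h and 7.21, 6.33 and 6.88 at 48 h. The arms overlapped at 8 h and were apart at 24 h (0.55 ± 0.055, adjusted p = 4.8e-08), and at 48 h the difference was -0.17 ± 0.06 (adjusted p = 0.025).

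Other genes of the pathway are given for comparison, with counts and no test between lists. Of 50 further replication and G1/S genes, 6 were higher and 8 lower at 8 h, 17 and 1 at 24 h, and 4 and 13 at 48 h. Of all tested genes 9.12% were higher and 7.26% lower at 8 h, 15.4% and 13.8% at 24 h, and 16.1% and 16.4% at 48 h, the shares against which the mitosis counts stand as well. The average difference was largest for E2F7, an E2F repressor, and POLD4, the smallest subunit of polymerase delta. E2F7 was at 40.9 ± 1.97 TPM (SD, n = 3) in untreated cells and 38.6 ± 6.95 in the TGFβ arm at 0 h. At 24 h it was at 16.6 ± 0.93 TPM in untreated and 41.4 ± 3.41 in stimulated cells, a difference of 1.33 ± 0.065. The stimulated level was thus close to that of 0 h, and the untreated level had fallen. At 48 h the difference was 1.01 ± 0.065 (adjusted p = 3.5e-11). POLD4 was at 167 ± 5.38 TPM in untreated and 234 ± 7.51 in stimulated cells at 48 h, a difference of 0.52 ± 0.091 (adjusted p = 8.8e-05).

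Mitosis and G2/M genes took another course. At 24 h, 1 of 48 was higher (MYBL2) and 17 were lower, with a median difference of -0.17, and at 48 h 22 were higher and 2 lower, with a median of 0.27. The difference from 24 to 48 h rose for 21 and fell for MYBL2 (3.5% and 5.61% of all tested genes). The median of that change was 0.42, where the replication genes had -0.66. None of the mitosis list was higher at 24 h and lower at 48 h (0.464% of all tested genes were). From 0 to 48 h, 27.1% of all tested genes were lower in untreated cells and 28.1% in the TGFβ arm. Both lists fell over that interval, with 48 of 48 mitosis genes called in each arm. UBE2C, the ubiquitin-conjugating enzyme of the anaphase-promoting complex, and CDC25B, a mitotic phosphatase, had the largest average differences of that list. They were lower at 8, 24 and 48 h, UBE2C by -1.08 ± 0.06 and CDC25B by -0.74 ± 0.064 at 24 h.

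Inhibitors of the cyclin-dependent kinases and MYC were measured as well. CDKN1A, which encodes p21, was at 163 ± 8.69 TPM in untreated cells and 153 ± 11.8 in the TGFβ arm at 0 h (SD, n = 3). At 8 h it had fallen to 63.5 ± 0.61 and 83.6 ± 1.26 TPM. By 48 h it was at 48.3 ± 0.72 TPM in untreated and 145 ± 6.498 in stimulated cells, the latter not above its 0 h mean. It was higher at 8 h (0.45 ± 0.062), 24 h (0.62 ± 0.061) and 48 h (1.61 ± 0.063, adjusted p = 7.8e-15). CDKN1B, which encodes p27, was lower, by -0.55 ± 0.039, -0.63 ± 0.038 and -0.34 ± 0.038. Mean TPM of CDKN2C at 8, 24 and 48 h was 51.9, 45.6 and 18.8 in untreated and 34.2, 27.8 and 15.0 in stimulated cells. For CDKN2D the means were 11.6, 12.0 and 9.16 against 9.27, 9.47 and 8.55. CDKN1C was at 6.285, 9.44 and 12.5 against 2.695, 6.85 and 14.6 TPM. MYC was at 81.6, 75.8 and 98.7 against 87.35, 56.8 and 66.4 TPM. Of the 8 genes of this list 6 were tested, and the other two, CDKN2A and CDKN2B, did not exceed 0.00804 TPM in any library.

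Coding transcripts carried at least 75% of the TPM of a member in every group for 35 of the 48, and under 50% in every group for MCM4, MCM7 (37.1% to 48.3%) and RRM2. Named processed copies took few reads, the most being RRM2P3 with a mean of 5.60 estimated counts against 8773 for RRM2. Markers of other cell types were low, or moved with the arms or with time. The summed level of 4 fibroblast markers, mostly LUM, DCN and PDGFRA, was 46.0 to 46.4 TPM in untreated cells and 18.9 to 23.9 TPM in the TGFβ arm at 48 h, and 17.1 to 18.4 and 14.9 to 17.1 TPM at 24 h, while COL1A2 of that list did not exceed 0.221 TPM. Of 5 leukocyte markers CD68 made up most (sums of 9.34 to 42.1 TPM) with CD3E at 0, and 4 endothelial markers summed to 0.928 to 4.82 TPM. Mean CD68 fell from 31.2 TPM at 0 h to 9.23 at 48 h in untreated cells and from 34.9 to 7.89 in the TGFβ arm. The mitochondrial share of counts was 4.65% to 5.04% in untreated and 5.07% to 5.37% in stimulated cells at 24 h. The part of these levels in the differences was not tested.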

How the data were processed

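RNA-Seq was compared in 24 SK-MES1 libraries. The authors quantified reads with kallisto 0.43.0 against Ensembl transcripts of GRCh38, and the deposited estimated counts are not normalized. TPM, also deposited, corrects each count for effective length and sets every library to one total. The deposited effective lengths entered the length-scaled alternative only.

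Transcripts were assigned to genes with GENCODE release 44 (155518 of 173259 matched, holding 94.82% to 95.18% of counts), and counts were summed and rounded. Genes with at least 10 counts in at least 3 libraries were tested with voom weights and TMM factors in limma 3.58.1 (R 4.3.3), with 1 mean per group over all 24 libraries and the Benjamini-Hochberg adjustment over 17453 genes at 0.01. Fits with edgeR 4.0.16, DESeq2 1.42.0 and other scalings, filters and blocks were alternatives. The fit was tested on simulated data. The members and lists were chosen with earlier results of these data known. Named members were, in each role, that with the largest average difference, that with the highest TPM and those passing the F-test against the majority direction, and MCM2, PCNA, CCND1, CCNE1 and E2F1 by name. The direction was the sign of the mean difference, whether or not that mean passed by itself. Others are named where a count or rank needs them. Replicates differed by more than sampling noise. Values of some single genes outside the 48 are not reported here.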

Additional observations from a re-analysis of the deposited data

Results flagged for a closer look

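The effect of TGFβ differed between time points by the interaction contrasts (limma voom, adjusted p of 0.01). It changed for 8 members between 0 and 8 h, 34 between 8 and 24 h and 37 between 24 and 48 h. The step from 8 to 24 h crosses library codes in both arms, and the other steps do not.

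Between 24 and 48 h the change is given for those of the 26 members picked by role that passed. The log2 difference, TGFβ arm minus untreated, fell most for CDC6 (-1.43), E2F1 (-1.18), MCM2 (-1.08), FEN1 (-0.91), CCND1 (-0.88), MCM3 (-0.88) and CDC25A (-0.83). It also fell for CCNE1 (-0.75), PCNA (-0.74), RFC3 (-0.73), CHAF1B (-0.73), UHRF1 (-0.69), RFC4 (-0.64), RRM2 (-0.61) and GINS1 (-0.59). The smallest falls that passed were those of GINS3 (-0.50), POLE (-0.45), RRM1 (-0.42), POLD3 (-0.40), GMNN (-0.36) and RFC5 (-0.34). CCND1 and RRM2 were called in the same direction at both times. GINS3 and UHRF1, called at 24 h only of these times, and RFC3, called at 48 h only, kept their sign as well. CDC6, MCM2, MCM3, PCNA, FEN1, CDC25A and E2F1 went from a called higher to a called lower level. With the 4 reference genes the 48 h call was lost for CDC6 (-0.16), MCM3 (-0.22), FEN1 (-0.11) and CDC25A (-0.021), and PCNA was at 0.035. E2F2 (-0.76) and TYMS (-0.58), outside the 26, passed as well. With 1 library left out, the call was lost for GMNN without any of the untreated 24 or 48 h replicates, TGFβ 24 h replicate 2 or TGFβ 48 h replicate 2 or 3 (-0.38 to -0.32). It was lost for RFC5 without untreated 24 h replicate 1 or 3, any untreated 48 h replicate, TGFβ 24 h replicate 2 or TGFβ 48 h replicate 1 or 2 (-0.35 to -0.30). POLD3 lost it without untreated 24 h replicate 1 or 3, untreated 48 h replicate 2 or 3 or TGFβ 48 h replicate 1 or 3 (-0.40 to -0.37). RRM1 lost it without replicate 3 of untreated 24 or 48 h or TGFβ 48 h replicate 1 or 2 (-0.41 to -0.38), and POLE without untreated 48 h replicate 1 (-0.41). Other settings ended calls of the same change, among them the 4 reference genes for GMNN, POLD3, RFC3 (-0.82), RFC4 (-0.74), RFC5 and RRM1, and both log2 TPM fits and length-scaled counts for GMNN, POLD3, RFC5 and RRM1 (-0.41 to -0.25).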

How the results depend on the processing

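Scaling, the test and the libraries fitted moved several counts of called members. At 8 h, 15 members were called, and 24 were at an adjusted p of 0.05, 26 with library totals, 7 with the 4 reference genes and 30 in a fit on the compared libraries only. The last gave 22 at 24 h in place of 35. At 48 h the 4 reference genes gave 12 in place of 27. From 0 to 8 h in untreated cells, 23 became 10 on log2(TPM + 1), 10 on log2(TPM + 0.1), 15 with length-scaled counts and 15 with library totals. The change from 0 to 8 h was 3 in place of 8 with the 4 reference genes. Leaving out 1 library gave 9 to 21 at 8 h, 30 to 37 at 24 h, 24 to 28 at 48 h, 13 to 26 from 0 to 8 h in untreated cells and 32 to 38 for the change from 24 to 48 h.

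With the 4 reference genes the direction reversed for PCNA at 48 h (0.035), POLD2 at 24 h (0.44) and 48 h (0.18), POLE at 48 h (0.22), RRM2 at 24 h (0.17), TK1 at 24 h (0.37), and, from 0 to 48 h in the TGFβ arm, RFC1 (0.18) and CCNE1 (0.13). The median of all tested genes moved up on that scale, and the cause was not tested further. Over named members and alternatives, 5677 values kept their direction and side of the threshold, 143 lost a call, 100 gained one and 8 reversed.

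Same-numbered replicates were not shown to be paired: their deviations correlated by 0.072 to 0.296 at 0 h, -0.047 to -0.009 at 8 h, 0.089 to 0.301 at 24 h and -0.016 to 0.092 at 48 h. With the replicate block 20 members were called at 8 h, 35 at 24 h, 29 at 48 h and 38 for the change from 24 to 48 h, and it moved no count by over 1.5 times. The lowest count of a member in a library was 74.6, for CCNE2.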
